A study of Mus musculus with 16 samples.

Results

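The Toll-like receptor family comprised 10 genes here, Tlr1 to Tlr9 and Tlr13, which were taken by symbol from the 55385 genes listed in the count table of brain myeloid cells. All 10 passed the filter on low counts that left 14513 genes for testing. Tlr11 and Tlr12, the other family genes of the mouse, were kept apart: Tlr11 had between 0 and 23 counts per library and was not tested, and Tlr12 had between 33 and 765 counts.

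Toll-like receptors are membrane proteins that recognise molecules shared by many microbes, and some of them also respond to products of damaged cells and to protein aggregates. TLR2, which pairs with TLR1 or TLR6 to bind lipoproteins, TLR4, which senses lipopolysaccharide with CD14 and MD-2, and TLR5, which binds flagellin, act at the cell surface, whereas TLR3, TLR7, TLR8, TLR9 and TLR13 sense nucleic acids inside endosomes. Ligand binding recruits the adaptors MyD88 or TRIF, and kinases and ubiquitin ligases then pass the signal to NF-κB and interferon regulatory factors. CARD9 is an adaptor that signals mainly below C-type lectin receptors and also leads to NF-κB.

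RNA was sequenced from CD11b-positive cells bound to magnetic beads, which were isolated from the brains of female mice at 20 weeks of age after the meninges and choroid plexus had been taken off. The 16 libraries fell into 4 genotypes of 4 libraries each: WT mice with intact Card9 and no transgene, Card9-/- mice, 5xFAD mice, which carry human transgenes with mutations of familial Alzheimer's disease and accumulate amyloid beta, and Card9-/-5xFAD mice, which have both changes. The Card9 deletion was germline and so was not limited to the sorted cells. It is not stated whether each library came from a separate mouse, and p-values therefore measure the spread between these libraries. Between 2970148 and 19333325 reads per library were counted on genes, with a median of 7944265.

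Levels are given as CPM, each library's counts scaled to a common total with edgeR's trimmed-mean (TMM) factors. The sorted cells expressed all 8 listed microglia markers in every genotype. In each genotype 1 library had a lower sum of these markers than the other 3, with 12200 to 14300 CPM in WT 1, Card9-/- 4, 5xFAD 1 and Card9-/-5xFAD 4. The other 12 libraries lay between 19492 and 31600 CPM. Card9-/- 4 and Card9-/-5xFAD 4 also were the shallowest, with 3229322 and 2970148 counts, and had the highest sums of neutrophil markers (6280 and 5970 CPM, against 488 to 3600 CPM elsewhere), and the Tlr7 and Tlr8 results, which rest on them most, are given with and without them. In Card9-/- 4, S100a8 (1790 CPM) and S100a9 (3300 CPM) made up most of the neutrophil sum, and Camp (267 CPM) was the highest of that genotype. Ngp (149 CPM) and Ly6g (3.6 CPM) were the lowest of that genotype there. In Card9-/-5xFAD 4, S100a8 (1740 CPM), S100a9 (2750 CPM), Camp (614 CPM) and Ngp (238 CPM) were the highest of that genotype, but Ly6g (2.8 CPM) was not. Card9 itself averaged 36.9 ± 16.3 CPM (SD, n = 4) in WT, 29.1 ± 8.36 in libraries labelled Card9-/-, 27.7 ± 8.28 in 5xFAD and 20.2 ± 11.8 in those labelled Card9-/-5xFAD. These ranges overlapped, and the log2 fold change of Card9 with the Card9-/- label, as the mean over mice with and without transgenes, was -0.39 ± 0.32 SE (adjusted p = 0.678, edgeR). Every direction given for Card9 thus rests on the labels, since the counts of the targeted gene do not separate the genotypes and the deleted part of the gene is not given in the sources used here.

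Tlr1 and Tlr6 are neighbours on chromosome 5 and the most alike members in sequence, which bears on how their reads can be counted. Their coding sequences were 76.3% identical over aligned bases, while all other pairs of members were between 55.2% and 62.5% identical. The longest identical stretch is shown because a read that falls within it cannot be assigned to either gene by its sequence. It is 229 bases long, lies in the coding exon of both genes on the minus strand of GRCm38, at chr5:64925537-64925765 in Tlr1 and at chr5:64953828-64954056 in Tlr6, and is printed 5′ to 3′ in the sense of transcription:
Tlr1 and Tlr6 shared coding stretch: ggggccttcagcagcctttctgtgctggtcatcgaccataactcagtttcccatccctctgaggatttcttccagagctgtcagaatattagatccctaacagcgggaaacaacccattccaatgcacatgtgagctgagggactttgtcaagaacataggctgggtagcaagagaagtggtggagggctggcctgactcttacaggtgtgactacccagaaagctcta
Of all 50-base windows of Tlr1 exons, 13.6% also occurred in Tlr6, and 15.4% in any other gene, Tlr6 included. Of the windows of Tlr6, 12.3% occurred in Tlr1. The counts of this pair are therefore uncertain to the extent that shared reads were discarded or split, and the counting rule for such reads is not given in the sources used here. Tlr3 shares 381 bases with an antisense gene (Gm45542), and the strand setting of the counting is also not given. Tlr4 shares 12 of its 5551 windows with Gm37744, and the other 6 members shared none with any gene.

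Tlr5 and Tlr8 were the members that were lower with the transgenes in every pair of same-numbered libraries, and Tlr6 was the only member with an interferon regulatory factor pattern before a start site, so their upstream sequences are shown. RefSeq windows of 300 bases (250 before and 50 after the start) were matched for 8 of the 10 members, all but Tlr4 and Tlr7. Only bases outside annotated exons are printed, 5′ to 3′ in the sense of transcription from GRCm38.p6, and capitals mark the letters searched on either strand: GAGGAA, the core bound by the myeloid factor PU.1, GGG and CC with 5 bases of any kind between them, a loose NF-κB pattern, GAAA and GAAA with 2 bases of any kind between them, the pattern of interferon regulatory factors, and TGANTCA, that of AP-1 (N is any base).
Tlr5 (chr1:182954538-182954787, plus strand): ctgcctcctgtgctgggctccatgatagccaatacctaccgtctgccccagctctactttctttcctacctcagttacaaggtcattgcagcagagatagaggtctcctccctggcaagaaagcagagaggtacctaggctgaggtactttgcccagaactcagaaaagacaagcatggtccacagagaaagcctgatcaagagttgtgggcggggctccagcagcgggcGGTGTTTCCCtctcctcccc
Tlr8 (chrX:167264330-167264579, minus strand): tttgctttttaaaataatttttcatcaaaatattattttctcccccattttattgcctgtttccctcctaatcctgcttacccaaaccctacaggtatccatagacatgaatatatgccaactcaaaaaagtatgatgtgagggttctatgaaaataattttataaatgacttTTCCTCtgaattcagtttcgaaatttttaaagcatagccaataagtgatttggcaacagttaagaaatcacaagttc
Tlr6 (chr5:64959167-64959416, minus strand, before the inner of its 2 starts): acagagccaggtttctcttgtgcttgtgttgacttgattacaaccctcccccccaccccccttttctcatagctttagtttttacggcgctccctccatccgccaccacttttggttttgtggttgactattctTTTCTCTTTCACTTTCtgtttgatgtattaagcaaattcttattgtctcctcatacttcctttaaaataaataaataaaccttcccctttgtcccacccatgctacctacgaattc
Tlr5 held 1 NF-κB pattern that began 20 bases before the start, and Tlr8 held 1 PU.1 core that began 77 bases before it. The inner Tlr6 start had 2 overlapping interferon regulatory factor patterns, which began 116 and 110 bases upstream. Of 32851 such windows over all genes, 50.8% held the NF-κB pattern, 28.3% the PU.1 core, 7.81% the AP-1 pattern and 3.44% that of interferon regulatory factors. A match describes letters and is not evidence of binding.

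The most abundant receptors, compared per kilobase of exon, were Tlr2, Tlr7 and Tlr13 in every genotype. In WT, Tlr2 stood at 38.1 ± 9.28 CPM per kilobase (SD, n = 4), Tlr13 at 30.3 ± 6.43 and Tlr7 at 27.7 ± 4.13. The ranges of these 3 overlapped, and every one of their libraries lay above all libraries of Tlr4 (14.2 ± 4.65). Tlr3 (12.6 ± 2.16), Tlr1 (8.62 ± 2.7) and Tlr6 (6.91 ± 1.91) followed, each overlapping with its neighbour in the order. A gap without overlap separated Tlr6 from the scarce members Tlr9 (2.25 ± 0.933), Tlr5 (1.77 ± 0.739) and Tlr8 (1.22 ± 0.6), which overlapped among themselves.

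The order of levels varied little between genotypes. Tlr2 had the highest mean per kilobase in all 4 genotypes, at 39.7 ± 6.23 in Card9-/-, 52.7 ± 22.7 in 5xFAD and 50.9 ± 27.5 in Card9-/-5xFAD. Tlr9, Tlr5 and Tlr8 filled the last 3 places throughout. The middle ranks changed places: Tlr4 was the fourth in WT and Card9-/- and the sixth in 5xFAD and Card9-/-5xFAD, where Tlr3 and Tlr1 had higher means with overlapping ranges. The summed CPM of the 10 members was 578 ± 81.4 in WT, 731 ± 94.2 in Card9-/-, 536 ± 146 in 5xFAD and 646 ± 230 in Card9-/-5xFAD, with overlapping ranges. Within single libraries, Tlr2 made up between 18.2% and 41.5% of the members' summed CPM per kilobase, Tlr7 between 14.9% and 33.9%, and Tlr8 between 0.191% and 3.93%.

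**Figure D1:**
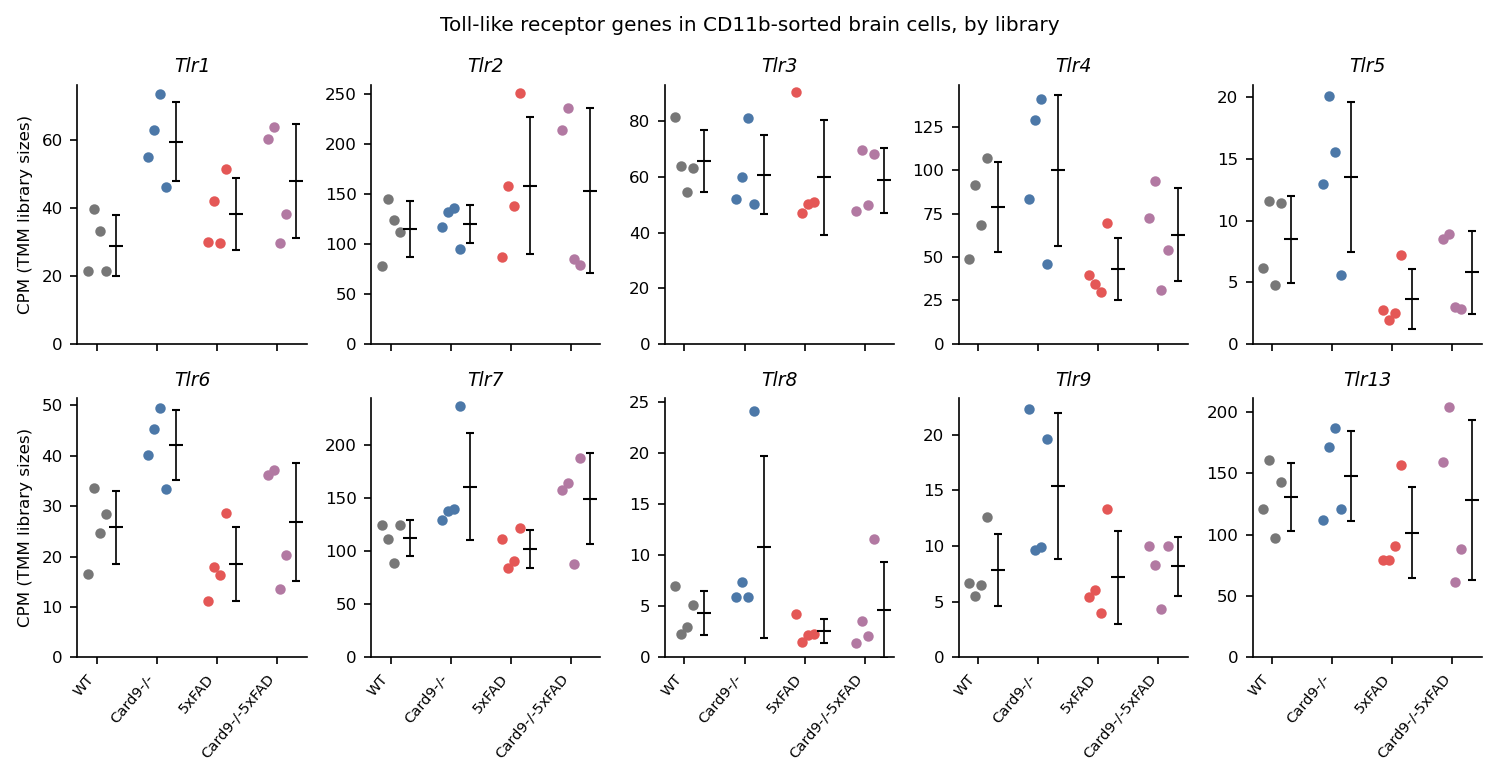
CPM of each member (vertical axis, linear from 0, own scale per gene) in the 16 libraries, grouped by genotype on the horizontal axis. Points are libraries in order of replicate number and bars are the mean ± SD of 4 libraries, cut at 0. Tlr5 stays between 1.92 and 2.73 CPM in 3 of the 4 5xFAD libraries, and Tlr8 reaches 24.2 CPM in Card9-/- 4.

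To ask how amyloid pathology bears on receptor expression, libraries with the transgenes were compared with those without them, in 5xFAD against WT, in Card9-/-5xFAD against Card9-/-, and as the mean of both comparisons. The mean comparison called 1 of the 10 members: Tlr5, the flagellin receptor, fell (log2 fold change -1.22 ± 0.37 SE, 0.429-fold with a 95% interval from 0.248 to 0.742, adjusted p = 0.062, edgeR quasi-likelihood test with Benjamini-Hochberg adjustment over 14513 genes). Over all genes the same comparison called 11.3% at an adjusted p below 0.1, so that 1 of 10 members is near the background. In 5xFAD against WT edgeR called 0 members and 2.09% of all genes, with 1 member (Tlr5) and 10.8% of all genes at an unadjusted p below 0.05, and DESeq2 called 0 members and 4.07% of all genes. In Card9-/-5xFAD against Card9-/- edgeR called 0 members and 1.97% of all genes, with 1 member (Tlr5) and 12.2% of all genes at an unadjusted p below 0.05, and DESeq2 called 0 members and 5.75%. Of the members, 8 of 10 had a lower estimate with the transgenes, with a median of -0.40, beside 61.7% of all genes and a median of -0.15 over all genes, which was -0.08 with DESeq2 size factors.

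Tlr5 (chr1:182954788-182976044, plus strand) was measured at 6.16, 11.6, 4.74 and 11.4 CPM in WT replicates 1 to 4 and at 2.73, 1.92, 2.52 and 7.22 CPM in 5xFAD. In Card9-/- it was at 13, 20.1, 15.6 and 5.56 CPM, and in Card9-/-5xFAD at 8.49, 8.9, 2.95 and 2.8 CPM. Card9-/- 4 lay below both higher Card9-/-5xFAD libraries and 5xFAD 4 lay above WT 1 and WT 3, so the groups overlapped although every 5xFAD or Card9-/-5xFAD library was below its same-numbered partner. These levels rest on as few as 7 counts in a library and at most 486. The fold was alike in both Card9 backgrounds, at -1.23 ± 0.53 in 5xFAD against WT (adjusted p = 0.403) and -1.21 ± 0.52 in Card9-/-5xFAD against Card9-/- (adjusted p = 0.349), and the interaction was 0.02 ± 0.7 with a 95% interval from -1.46 to 1.51.

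The call for Tlr5 was lost when any of 8 libraries was left out, with an adjusted p of 0.114 without WT 2, 0.135 without WT 4, 0.138 without Card9-/- 2, 0.102 without Card9-/- 3, 0.109 without 5xFAD 1, 0.133 without 5xFAD 2, 0.13 without 5xFAD 3 and 0.124 without Card9-/-5xFAD 3. In the other 8 cases it stayed between 0.0243 and 0.0974, and the estimate lay between -1.38 and -1.10 in all 16.

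Libraries of the same replicate number deviated together from their genotype means in both transgene comparisons. The labels do not say that these numbers pair libraries, so the pairing was taken from these same data. With these 8 pairs as a block, added after the data were seen, 5 members fell in the mean comparison, beside 41.9% of all genes called in that fit in either direction and 23.8% of all genes called lower. Tlr5 fell by 1.29 (SE 0.26, adjusted p = 0.00306) and was lower in 8 of 8 pairs. Tlr8, an endosomal receptor for single-stranded RNA, fell by 1.07 (SE 0.21, adjusted p = 0.00271) and was also lower in 8 of 8 pairs. Tlr4, the lipopolysaccharide receptor, fell by 0.76 (SE 0.23, adjusted p = 0.0228) and Tlr6, a partner of TLR2, by 0.62 (SE 0.19, adjusted p = 0.0257), both lower in 7 of 8 pairs. Tlr9, the receptor for unmethylated CpG DNA, fell by 0.52 (SE 0.18, adjusted p = 0.0436) and was lower in 6 of 8 pairs. How many of all genes were lower in as many pairs was not counted, so these pair counts have no background beside them. In the paired fit of the separate comparisons, Tlr4 and Tlr5 were called in 5xFAD against WT, beside 16% of all genes, and Tlr5, Tlr6, Tlr8 and Tlr9 in Card9-/-5xFAD against Card9-/-, beside 20.4%. The paired interaction called 0 members and 0% of all genes, with the lowest unadjusted p among members at 0.0651 (Tlr1, edgeR), so no member was shown to differ between the Card9 backgrounds.

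**Figure D2:**
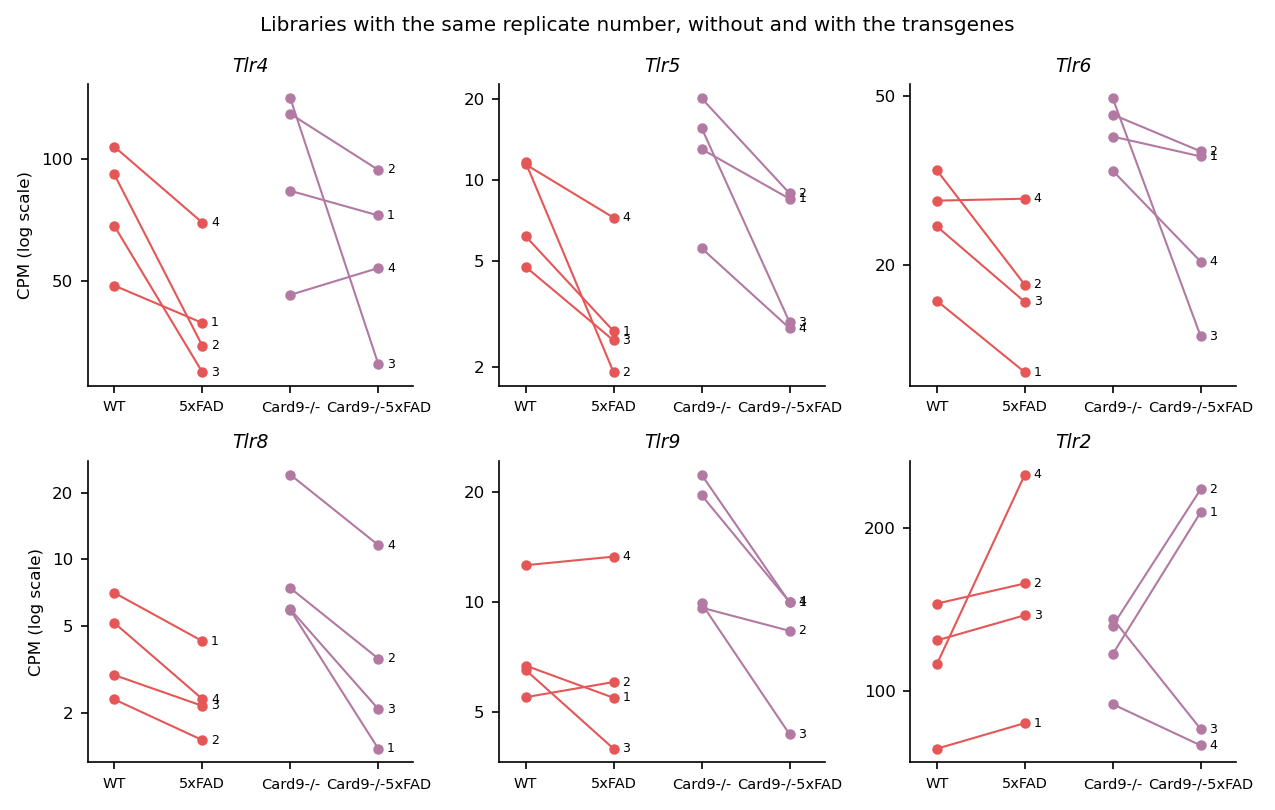
CPM (vertical axis, log scale) of 6 members in libraries without and with the transgenes (horizontal axis); each line joins libraries with the same replicate number, printed at its right end. All 8 lines go down for Tlr5 and Tlr8, 7 of 8 for Tlr4 and Tlr6 and 6 of 8 for Tlr9, whereas 6 of 8 go up for Tlr2. The share of all genes with such lines was not counted.

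Tlr4 (chr4:66827584-66930284, plus strand) was at 48.6, 91.4, 68.2 and 107 CPM in WT replicates 1 to 4 and at 39.3, 34.5, 29.7 and 69.5 CPM in 5xFAD. It was at 83.3, 129, 141 and 46.1 CPM in Card9-/- and at 72.4, 93.8, 31.1 and 53.7 CPM in Card9-/-5xFAD. Only the pair numbered 4 of the Card9-/- backgrounds ran the other way. Without pairs, the estimate of -0.77 ± 0.29 did not pass (adjusted p = 0.125), but it did with DESeq2 (-0.71 ± 0.29, adjusted p = 0.0877, beside 16.5% of all genes).

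Tlr8 (chrX:167242696-167264329, minus strand) was at 7.04, 2.31, 2.98 and 5.14 CPM in WT replicates 1 to 4 and at 4.25, 1.51, 2.16 and 2.32 CPM in 5xFAD. In Card9-/- it was at 5.88, 7.4, 5.93 and 24.2 CPM, and in Card9-/-5xFAD at 1.38, 3.54, 2.09 and 11.6 CPM. The libraries numbered 4 stood above the other 3 in both Card9-/- backgrounds, and they are the ones with the highest neutrophil sums and with border-associated macrophage sums of 1720 and 1680 CPM. In WT and 5xFAD, Tlr8 was likewise highest in the libraries of lowest microglia markers, WT 1 and 5xFAD 1. They also had the highest neutrophil (3600 and 2100 CPM) and macrophage sums (1610 and 801 CPM) of their genotype. Over the 16 libraries, Tlr8 had r = 0.75 with the neutrophil, 0.758 with the macrophage and -0.579 with the microglia sum. Without the 2 libraries farthest out, r was 0.478, 0.616 and -0.458. The part of these sums in Tlr8 was not tested. Of the macrophage markers in Card9-/- 4, Cd163 (33.4 CPM) was the lowest of that genotype and Mrc1 (225 CPM) lay within the range of the others. In Card9-/-5xFAD 4, Mrc1 (150 CPM) was the highest of that genotype and Cd163 (29.6 CPM) lay within the range of the others. In both libraries most of the macrophage sum came from Lyve1, Pf4, Ms4a7 and Cbr2, whose single values are not given here. Without pairs, the Tlr8 estimate was -1.02 ± 0.46 (adjusted p = 0.202). Without the 2 shallow libraries, Card9-/- 4 and Card9-/-5xFAD 4, the estimate was -1.09 ± 0.33 (adjusted p = 0.043). Without the library of lowest microglia markers in each genotype it was -1.10 ± 0.28 (adjusted p = 0.0153). It was called in these fits beside 20.6% and 34.5% of all genes. With 1 of the shallow libraries left out alone, the Tlr8 estimate was -0.67 ± 0.41 (adjusted p = 0.289) without Card9-/- 4 and -1.46 ± 0.41 (adjusted p = 0.0384) without Card9-/-5xFAD 4, so its size turned on which of them was in the fit.

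Tlr6 was between 16.5 and 33.5 CPM in WT and between 11.2 and 28.7 CPM in 5xFAD, and between 33.4 and 49.5 CPM in Card9-/- and between 13.6 and 37.1 CPM in Card9-/-5xFAD. Its unpaired estimate was -0.56 ± 0.25 (adjusted p = 0.189). Tlr9 was between 5.48 and 12.6 CPM in WT, between 3.96 and 13.3 CPM in 5xFAD, between 9.64 and 22.3 CPM in Card9-/- and between 4.34 and 10 CPM in Card9-/-5xFAD, with an unpaired estimate of -0.51 ± 0.31 (adjusted p = 0.344).

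Tlr2 was the member with the highest positive estimate. Tlr2 (chr3:83836272-83841767, minus strand) was at 78.2, 145, 124 and 112 CPM in WT and at 87.2, 158, 138 and 251 CPM in 5xFAD, and at 117, 132, 136 and 94.5 CPM in Card9-/- and 214, 236, 85 and 79.3 CPM in Card9-/-5xFAD. The Card9-/-5xFAD libraries fell into a high and a low pair with no value between 85 and 214 CPM. The mean estimate of 0.41 ± 0.27 did not pass (adjusted p = 0.394), and its 95% interval ran from -0.17 to 0.99. Tlr1, which also pairs with TLR2, had an estimate of 0.05 ± 0.22, with opposite signs in the 2 comparisons (0.40 ± 0.31 and -0.31 ± 0.31), a difference that did not pass as an interaction (adjusted p = 1).

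The nucleic acid receptors Tlr3, Tlr7 and Tlr13 had estimates near the median of all genes. Tlr3, which senses double-stranded RNA, had an estimate of -0.09 ± 0.19 (95% interval -0.50 to 0.31), and its sign turned to 0.04 with the stricter filter on low counts. Tlr7, which senses single-stranded RNA, had -0.13 ± 0.20 (-0.55 to 0.30), and Tlr13, which senses bacterial ribosomal RNA, had -0.28 ± 0.26 (-0.83 to 0.26). All 3 intervals include 0 and reach beyond the all-gene median.

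Markers of other cells and states were summed in the same libraries without a test, and of the lists given next only the disease-associated microglia genes did not overlap. The 10 disease-associated microglia genes summed to between 4490 and 9900 CPM without and between 20400 and 36500 CPM with the transgenes. The 6 monocyte markers summed to between 210 and 412 CPM without and between 83.2 and 229 CPM with the transgenes, and the 6 markers of border-associated macrophages to between 744 and 1720 CPM and between 334 and 1680 CPM. The 5 astrocyte markers lay between 4.59 and 39.3 CPM without and between 13.8 and 58.9 CPM with the transgenes. No marker of these lists was at 0 in all libraries of a genotype. Fewer cells of a type and less RNA per cell cannot be told apart in such bulk libraries, and the part of these markers in the changes of the receptors was not tested.

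**Figure D3:**
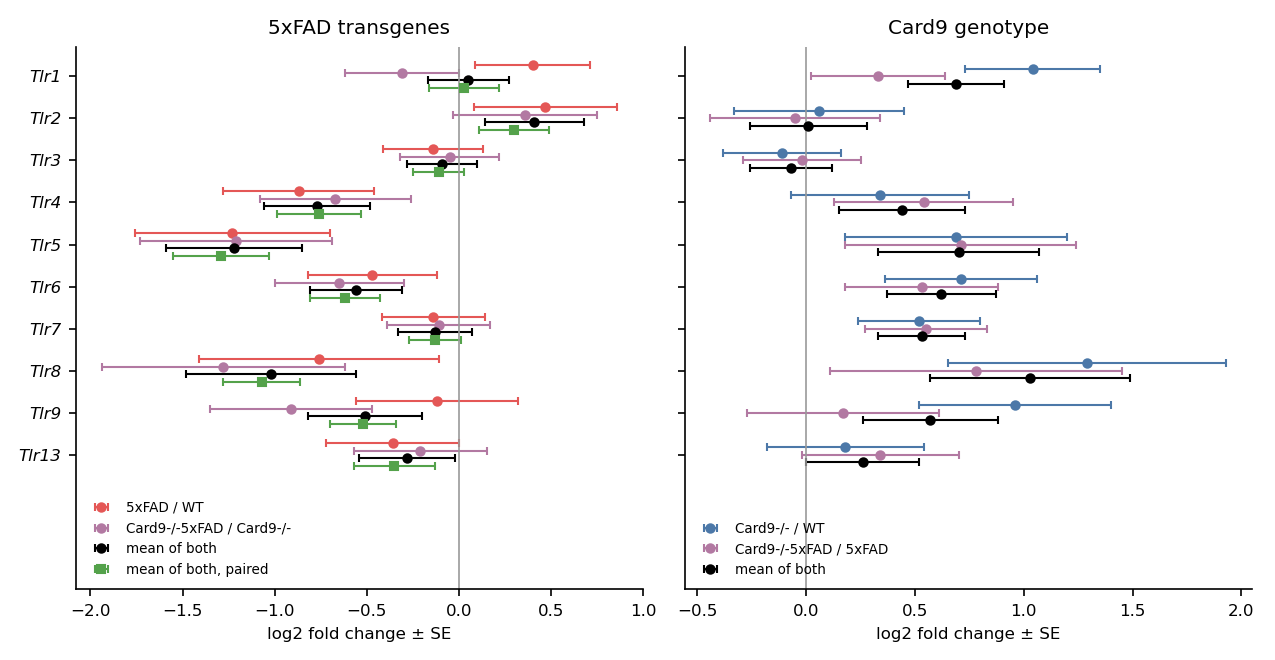
Log2 fold change (horizontal axis, bars are ± SE) of each member with the 5xFAD transgenes (left) and with the Card9-/- genotype (right), in each background and as the mean of both; green squares are the fit with 8 pairs of same-numbered libraries. In the paired fit Tlr5, Tlr8, Tlr4, Tlr6 and Tlr9, which were called, lie below 0, as do Tlr13, Tlr7 and Tlr3, which were not. On the right, 9 of 10 members have a mean estimate above 0.

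The loss of Card9 was compared in mice without transgenes, in 5xFAD mice and as the mean of both, and no member passed the test. At an adjusted p below 0.1, edgeR called 0% of all genes in Card9-/- against WT, where 4.11% of all genes and 2 members (Tlr1 and Tlr9) had an unadjusted p below 0.05 and DESeq2 called 0.0413% of all genes. It called 0% in Card9-/-5xFAD against 5xFAD, where 2.52% of all genes and 0 members had an unadjusted p below 0.05 and DESeq2 called 0.0207% of all genes. In the mean it called 0.0276%, which is 4 genes, and at an unadjusted p below 0.05 the members Tlr1, Tlr6, Tlr7 and Tlr8 were higher, beside 4.07% of all genes. The mean estimate was positive for 9 of 10 members with a median of 0.55, while 62.4% of all genes were positive with a median of 0.13. DESeq2 called 0 members in these 3 comparisons, beside 0.413% of all genes in the mean.

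Tlr1 had the lowest p among the members in Card9-/- against WT and in the mean, and Tlr7 in Card9-/-5xFAD against 5xFAD (unadjusted p = 0.07, edgeR). It was at 21.3, 39.6, 33 and 21.4 CPM in WT and at 55, 62.8, 73.5 and 46.1 CPM in Card9-/-, so that all 4 Card9-/- libraries lay above all 4 WT libraries. It was at 29.9, 41.9, 29.5 and 51.2 CPM in 5xFAD and at 60.1, 63.6, 29.5 and 38 CPM in Card9-/-5xFAD, which overlapped. The estimate was 1.04 ± 0.31 in Card9-/- against WT (unadjusted p = 0.00408, adjusted p = 0.97, edgeR) and 0.33 ± 0.31 in Card9-/-5xFAD against 5xFAD (adjusted p = 0.993, edgeR). Tlr7 was the other member whose libraries did not overlap, with 125, 112, 89.2 and 125 CPM in WT and 130, 138, 140 and 237 CPM in Card9-/-. Of all genes, 1.06% were separated in this way and direction. The estimate for Tlr7 was 0.52 ± 0.28 (adjusted p = 0.97) in Card9-/- against WT, which was 0.27 ± 0.28 without Card9-/- 4, and 0.55 ± 0.28 (adjusted p = 0.993) in Card9-/-5xFAD against 5xFAD. Its mean estimate of 0.53 ± 0.20 was 0.35 ± 0.18 (adjusted p = 0.313) without both shallow libraries.

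Among the rest, the mean estimates for the Card9-/- genotype were 1.03 ± 0.46 for Tlr8, 0.70 ± 0.37 for Tlr5, 0.62 ± 0.25 for Tlr6, 0.57 ± 0.31 for Tlr9, 0.44 ± 0.29 for Tlr4 and 0.26 ± 0.26 for Tlr13, all with an adjusted p between 0.519 and 0.731. The Tlr8 estimate rested on the 2 shallow libraries: it was 0.66 ± 0.41 without Card9-/- 4, 0.58 ± 0.40 without Card9-/-5xFAD 4 and 0.22 ± 0.33 (adjusted p = 0.729) without both. Tlr2 stood at 0.01 ± 0.27, with a sign that turned under other scalings, and Tlr3 at -0.07 ± 0.19. The 95% interval of Tlr2 ran from -0.57 to 0.59, or from 0.672-fold to 1.5-fold. The interaction of Card9 genotype and transgenes called 0 of 10 members and 0% of all genes, with 0 members and 0.537% of all genes at an unadjusted p below 0.05 and 0.00689% of all genes called by DESeq2. It ranged from -0.79 ± 0.62 for Tlr9 and -0.71 ± 0.44 for Tlr1 to 0.20 ± 0.58 for Tlr4.

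The members did not vary as 1 group across libraries. Tlr4, Tlr5, Tlr6 and Tlr13 kept close company: over the 16 libraries, log2 CPM of Tlr4 and Tlr5 correlated with r = 0.923 (Pearson) and rho = 0.918 (Spearman), and r was 0.912 without the 2 libraries farthest out and 0.879 after the genotype means were taken out. The other pairs of these 4 genes had r between 0.836 and 0.864, and between 0.781 and 0.866 within genotypes. Within genotypes Tlr1 and Tlr2 were less set apart from these 4 genes, with r between 0.634 (Tlr1 and Tlr5) and 0.943 (Tlr2 and Tlr6). Tlr1 and Tlr6, which share sequence, had r = 0.753, and 0.869 within genotypes. Tlr2 and Tlr6 had r = 0.489 over all libraries and 0.943 within genotypes, and Tlr2 and Tlr8 ran in opposite directions (r = -0.558). Tlr7 and Tlr8, neighbours on the X chromosome, had r = 0.721, which was 0.411 without the 2 libraries farthest out and 0.563 without Card9-/- 4. These values share library, depth and genotype and are descriptions.

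**Figure D4:**
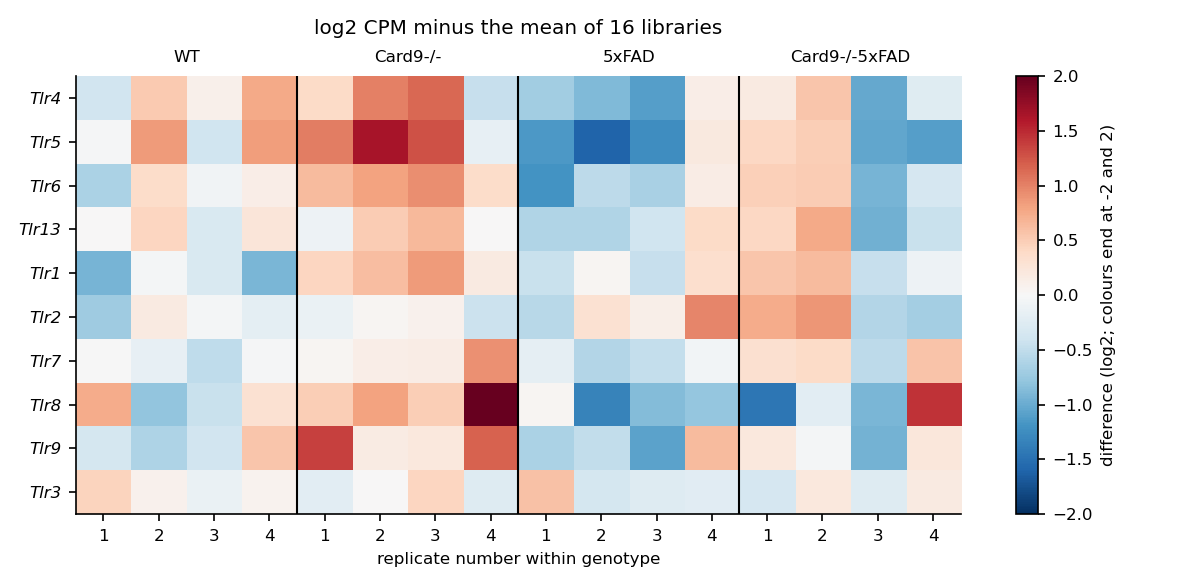
Log2 CPM of each member minus its mean over the 16 libraries (colour, ending at -2 and 2); columns are libraries by genotype and replicate number, and rows are members. Tlr4, Tlr5, Tlr6 and Tlr13 are low together in Card9-/-5xFAD 3 and in 5xFAD 1 to 3, whereas Tlr8 is highest in Card9-/- 4 and Card9-/-5xFAD 4.

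By the same measure, the 5 genes most alike to Tlr5 over the 16 libraries were Cep68 (r = 0.977), Tbc1d14 (0.965), Gramd1a (0.963), Acss1 (0.961) and Il10ra (0.96). The 5 most alike to Tlr2, the member of highest mean CPM, were Amz1 (r = 0.951), Naglu (0.944), Slc16a1 (0.941), Eepd1 (0.938) and Pfkl (0.937).

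The receptors' pathway was described by a list of 57 genes in 7 roles, of which 56 were tested, since Ifnb1 did not pass the filter on low counts. With the transgenes, 8 of the 56 were called in the mean comparison (14.3%, beside 11.3% of all genes), 1 higher and 7 lower, and the median over the 56 was -0.31. With the 8 pairs as a block, 29 of the 56 were called, beside 41.9% of all genes. In the 3 Card9 comparisons edgeR called 0 of the 56. At an unadjusted p below 0.05 it found 1 in each separate comparison, beside 4.11% of all genes without transgenes and 2.52% in 5xFAD mice. In the mean it found 4 at that threshold, beside 9.12% of all genes.

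Among co-receptors and ligand carriers, Ly86, which encodes the partner MD-1 of the receptor CD180, rose from 1690 ± 597 CPM in WT to 2330 ± 489 in 5xFAD and from 1150 ± 271 in Card9-/- to 2540 ± 1120 in Card9-/-5xFAD (log2 fold change 0.80 ± 0.25, adjusted p = 0.0635, edgeR). Cd36, a scavenger receptor that helps TLR2 and TLR6 take up ligands, fell from 56.5 ± 23.5 to 22.1 ± 8.36 CPM and from 55.8 ± 17.4 to 24.3 ± 7.25 CPM (-1.28 ± 0.28, adjusted p = 0.0111, edgeR), with the lowest adjusted p of the list. Cd14, the co-receptor of TLR4, had an estimate of 0.85 ± 0.37 that did not pass unpaired (adjusted p = 0.175) and passed with pairs (0.84 ± 0.22, adjusted p = 0.0145). Thus members of the role that works beside the receptors were called in both directions.

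In the signalling chain (trafficking, adaptors, kinases and ubiquitin ligases, and transcription factors), 5 of 33 genes were called unpaired, all lower (15.2%, beside 11.3% of all genes in either direction and 5.73% lower). With pairs 14 were called lower and 2 higher (48.5%, beside 41.9% of all genes in either direction and 23.8% lower). The 2 higher genes were the ubiquitin conjugating enzyme Ube2n (0.46 ± 0.15, adjusted p = 0.0362) and the chaperone Hsp90b1 (0.34 ± 0.13, adjusted p = 0.0565). Slc15a4, an endosomal transporter needed for signalling by TLR7 and TLR9, fell by 0.67 (SE 0.22, adjusted p = 0.0809). Tirap, the adaptor that bridges TLR2 and TLR4 to MyD88, fell by 0.63 (SE 0.19, adjusted p = 0.0661), from 21.9 ± 4.78 to 13.5 ± 4.17 CPM in WT and 5xFAD. The kinase genes Tbk1 (-0.75, adjusted p = 0.0543) and Chuk (-0.79, adjusted p = 0.0915) and the NF-κB subunit Nfkb1 (-0.63, adjusted p = 0.0634) also fell. All 6 adaptors had a negative estimate, from -0.63 to -0.36. Of these, 1 passed unpaired (16.7%, beside 11.3% of all genes) and 4 with pairs (66.7%, beside 41.9%). Most of these unpaired calls depended on single libraries: of the 16 fits that each left 1 out, Chuk was called in 3, Tirap in 4, Nfkb1 in 5, Slc15a4 in 6 and Tbk1 in 10, against 9 for Ly86, 12 for Ptgs2 and 16 for Cd36. Without Card9-/- 2 or without 5xFAD 3, Cd36 was the only gene of the list called.

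Of the 7 inhibitors edgeR called 0 unpaired, with 0 at an unadjusted p below 0.05, and the lowest p was that of Rnf216, a ubiquitin ligase that marks receptors for breakdown (-0.50 ± 0.24, adjusted p = 0.225). With pairs 3 were called lower: Rnf216 (-0.51 ± 0.14, adjusted p = 0.0166), Nrros (-0.53 ± 0.17, adjusted p = 0.0305) and Tollip (-0.67 ± 0.29, adjusted p = 0.0893). That is 42.9% of the 7, beside 41.9% of all genes called in that fit in either direction and 23.8% called lower. Among the 10 target genes tested, 6 had a positive and 4 a negative estimate, and Ptgs2, the inducible cyclooxygenase, fell (-0.90, adjusted p = 0.0614). Unpaired, Ptgs2 was the only listed gene called in a separate comparison, in 5xFAD against WT, from 4.31 ± 1.54 to 1.57 ± 0.545 CPM (-1.44, adjusted p = 0.0993). It was between 2.62 and 5.63 CPM in Card9-/- and between 2.4 and 3.75 CPM in Card9-/-5xFAD, where the estimate of -0.35 did not pass. With pairs, 9 of the 56 listed genes were called in 5xFAD against WT, 1 higher and 8 lower (beside 16% of all genes), and 12 in Card9-/-5xFAD against Card9-/-, 5 higher and 7 lower (beside 20.4%).

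**Figure D5:**
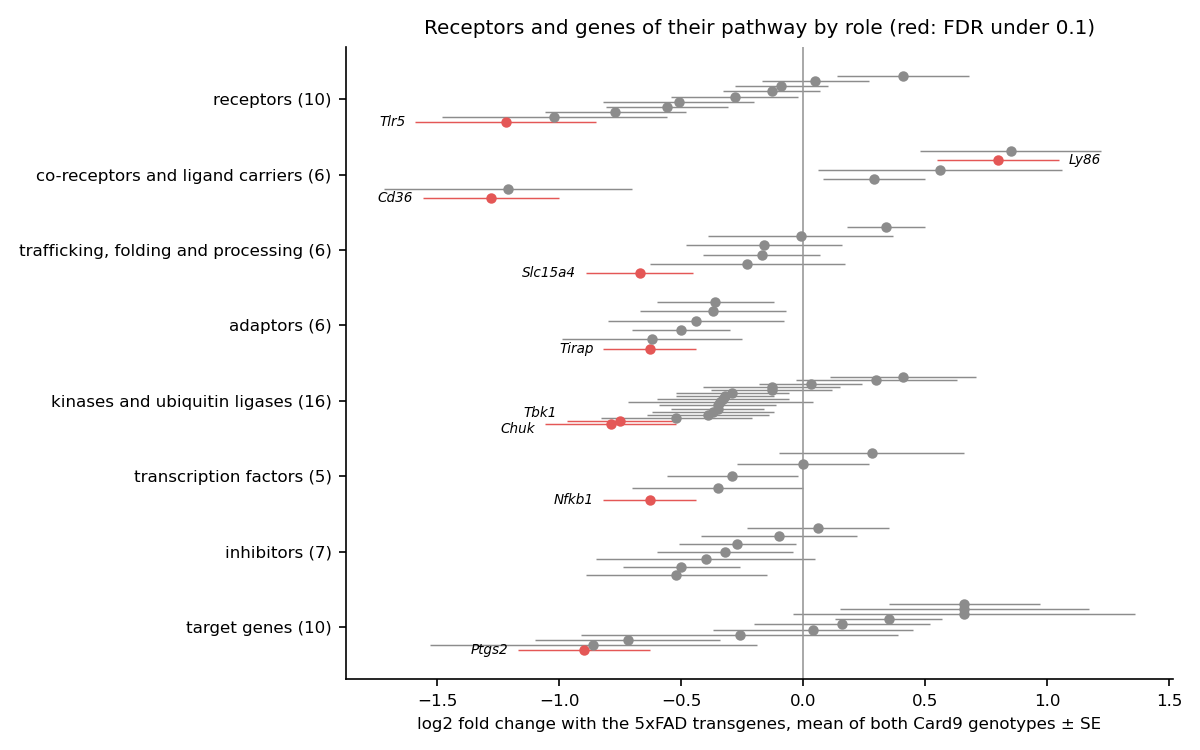
Log2 fold change with the 5xFAD transgenes, as the mean of both Card9 genotypes (horizontal axis, bars are ± SE), for the 10 receptors and the 56 tested pathway genes by role, with the number tested in brackets; genes with an adjusted p below 0.1 in the unpaired fit are red and named. Called genes lie below 0 in every role that has any, except Ly86 among the co-receptors.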

How the data were processed

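RNA-seq libraries of CD11b-positive brain cells from 4 genotypes (4 libraries each) were used. Per the study's methods the authors aligned reads to mm10 with HISAT2, filtered them with SAMtools and made the deposited gene counts with HTSeq; versions, annotation and strand setting are not given in the sources used here. All 16 count columns were used as deposited.

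Genes were filtered with filterByExpr (minimum count 10), scaled by TMM and tested in edgeR 4.0.16 (R 4.3.3) by a quasi-likelihood fit of 4 groups, with Benjamini-Hochberg adjustment over 14513 genes and a threshold of 0.1. DESeq2 1.42.0, sva 3.50.0 and other settings were alternatives. Estimates are log2 fold changes ± SE, levels are mean ± SD, and log2 CPM used a prior count of 2. Read totals limit precision most for Tlr5, Tlr8 and Tlr9. The unpaired edgeR fit was also run on simulated counts with known changes, whereas the paired, DESeq2 and surrogate variable fits were not.

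Members and lists were chosen with earlier results of these data known. Named are all members, pathway genes called in the mean transgene or any Card9 comparison, the gene of lowest p in roles with no call, and the 5 genes most alike to Tlr5 and Tlr2; Cd14, Ube2n, Hsp90b1, Nrros and Tollip were named after their values were seen. Besides the marker lists reported, lists for dendritic, T or NK, oligodendrocyte, neuron, endothelial and choroid plexus cells and for early response to handling were summed; 1 further list is not reported here. Labels share replicate numbers without saying that they pair libraries. Deviations from genotype means correlated for same-numbered libraries in WT and 5xFAD (r 0.275 to 0.708) and in Card9-/- and Card9-/-5xFAD (0.128 to 0.734), all 8 over 0.1, but not throughout between Card9 genotypes (-0.71 to 0.609), so paired values stand beside transgene results. None of the 24 pairs of libraries within a genotype was a copy, and pairs across genotypes were not checked. Gene positions are from GENCODE M21 on GRCm38 and upstream sequences from RefSeq on GRCm38.p6.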

Additional observations from a re-analysis of the deposited data

Results flagged for a closer look

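Of the 40 combinations of a member and a genotype, 6 had 1 library that stood far from the other 3 by Dixon's criterion. About 1 in 20 groups of independent, normally distributed values would meet it. The criterion was applied to untransformed CPM, and the combinations share libraries, so the 6 cannot be set against that rate. Card9-/- 4, a shallow library and the one with the highest neutrophil sum, held Tlr7 at 237 CPM (others 130 to 140) and Tlr8 at 24.2 CPM (others 5.88 to 7.4). 5xFAD 4, the 5xFAD library with the highest sum of early response genes, held Tlr5 at 7.22 CPM (others 1.92 to 2.73) and Tlr13 at 157 CPM (others 79.1 to 91). 5xFAD 1, the 5xFAD library of lowest microglia markers, held Tlr3 at 90.7 CPM (others 47.2 to 51.1). WT 4 held Tlr9 at 12.6 CPM (others 5.48 to 6.69). The part of these library features in the values was not tested.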

How the results depend on the processing

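The count of members called in the mean transgene comparison, 1 (Tlr5) as reported, was 0 with no filter on low counts, 0 with at least 10 counts in every library (a filter that removes Tlr5), 0 at an adjusted p below 0.05, 2 with DESeq2 (Tlr4 and Tlr5), and 1 with DESeq2 size factors. It was 3 without the library of lowest microglia markers in each genotype, 3 without the shallow libraries Card9-/- 4 and Card9-/-5xFAD 4 (Tlr4, Tlr5 and Tlr8 in both) and 4 with 1 surrogate variable, which added Tlr2 as higher (0.54, adjusted p = 0.0521, beside 31.5% of all genes); these and the paired fit were chosen after the data were seen. Leaving out 1 library at a time gave 0 to 2 members and 1 to 9 pathway genes. With the replicate block over all 16 libraries the count stayed at 1, beside 1871 genes in all, and changed no other member call; with pairs as a block within Card9 genotype it was 5, with 2 in 5xFAD against WT and 4 in Card9-/-5xFAD against Card9-/-. In Card9-/-5xFAD against Card9-/- it was 1 without the lowest microglia libraries and 1 with a surrogate variable (Tlr8 in both). These fits called 16.7% and 12.5% of all genes in that comparison. The 8 pathway genes called in the mean became 1 with no filter, 5 with the stricter filter, 1 at 0.05, 29 with pairs, 19 without the lowest microglia libraries and 17 with a surrogate variable, which also called 1 (Cxcl2, higher) in the mean Card9 comparison. The surrogate variable fit called 0.517% of all genes in the mean Card9 comparison. Over all genes the mean transgene calls, 1647 as reported, were 1070 with no filter, 920 at 0.05, 3017 without the shallow libraries, 4576 with a surrogate variable, 4948 without the lowest microglia libraries and 6078 with pairs. The cause of these moves was not tested.

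No called member value changed sign under any alternative. Of uncalled values, 28 changed sign outside the leave-one-out fits. In Card9-/-5xFAD against Card9-/-, Tlr3 was 0.02 with DESeq2 size factors, 0.08 with the stricter filter and 0.01 with DESeq2, and Tlr7 was 0.03 without the lowest microglia libraries and 0.03 without the shallow libraries. In the mean transgene comparison, Tlr3 was 0.04 with the stricter filter. In Card9-/-5xFAD against 5xFAD, Tlr2 was 0.17 and Tlr8 -0.13 without the shallow libraries, Tlr3 was 0.01 with the replicate block and 0.16 without the lowest microglia libraries, and Tlr9 was -0.04 without the latter. In Card9-/- against WT, Tlr2 was 0 with DESeq2 size factors, -0.06 with the stricter filter and 0 with DESeq2, and Tlr3 was 0.09 without the lowest microglia libraries. In the mean Card9 comparison, Tlr2 was -0.05 with DESeq2 size factors, 0 with no filter, -0.12 with the stricter filter, -0.05 with DESeq2, -0.01 without the lowest microglia libraries and -0.02 with a surrogate variable, and Tlr3 was 0.13 without the lowest microglia libraries. In the interaction, Tlr2 was 0.01 and Tlr3 -0.07 without the shallow libraries, and Tlr5 was -0.02 with no filter, -0.11 with the replicate block, 0 without the lowest microglia libraries and -0.01 without the shallow libraries.

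Leaving out 1 library at a time changed further signs of uncalled values. In 5xFAD against WT, Tlr3 ranged from -0.4 to 0.09 and Tlr9 from -0.4 to 0.22. In Card9-/-5xFAD against Card9-/-, Tlr3 ranged from -0.16 to 0.12, Tlr7 from -0.23 to 0.13 and Tlr13 from -0.53 to 0.03. In the mean transgene comparison, Tlr1 ranged from -0.04 to 0.14 and Tlr3 from -0.23 to 0.08. In Card9-/-5xFAD against 5xFAD, Tlr2 ranged from -0.34 to 0.17, Tlr3 from -0.23 to 0.24, Tlr8 from -0.13 to 1.11 and Tlr9 from -0.03 to 0.48. In Card9-/- against WT, Tlr2 ranged from -0.09 to 0.19 and Tlr3 from -0.29 to 0. In the mean Card9 comparison, Tlr2 ranged from -0.14 to 0.11 and Tlr3 from -0.22 to 0.06. In the interaction, Tlr2 ranged from -0.4 to 0.15, Tlr3 from -0.03 to 0.35, Tlr4 from -0.07 to 0.45, Tlr5 from -0.26 to 0.56, Tlr6 from -0.38 to 0.05, Tlr7 from -0.08 to 0.28, Tlr8 from -1.41 to 0.18 and Tlr13 from -0.17 to 0.38.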

Other observations

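Tlr12, the other family gene that passed the filter on low counts, was at 14.8 ± 7.33 CPM in WT (SD, n = 4), 26 ± 8.58 in Card9-/-, 18.7 ± 16.2 in 5xFAD and 29.2 ± 21.5 in Card9-/-5xFAD, with overlapping ranges. Its mean transgene estimate was 0.25 ± 0.43 (adjusted p = 0.766, edgeR). Tlr11 stayed below 1.21 CPM in every library and was not tested.

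Other marker lists were summed as well. Dendritic cell markers lay between 91.2 and 275 CPM without the transgenes and between 69.7 and 147 CPM with them, and T or NK cell markers between 19.3 and 224 CPM and between 9.77 and 101 CPM. Choroid plexus markers reached 2500 CPM in Card9-/- 4 and were as low as 3.06 CPM in Card9-/-5xFAD 1. Oligodendrocyte markers lay between 132 and 680 CPM, endothelial markers between 41.5 and 262 CPM and neuron markers between 1.48 and 14.4 CPM over all 16 libraries, and genes of the early response to handling between 2000 and 10400 CPM. Cd3e and Aqp1 were at 0 in all Card9-/-5xFAD libraries and Gad1 in all 5xFAD libraries.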
